A study of Mus musculus with 4 samples.

Results

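The starting state of LPS-matured mouse dendritic cells was read from the library of cells that received the siRNA si-NC and no CCR7 ligand. It is 1 of 4 libraries in the series, and all 18021 genes with a row in the expression table were described by their own level and by their rank within it, with rank 1 the highest and ties sharing the best rank. The series crosses si-NC or si-Lnc-Dpf3 (whose name points to lnc-Dpf3, a long non-coding RNA) with no stimulation (Med) or the CCR7 ligands CCL19 and CCL21 (CCR7L) for 12 h. The cells of all 4 groups were of the C57BL/6 strain, had been cultured for 5 days in RPMI1640 medium with GM-CSF and IL4, and had then been given LPS, a bacterial cell wall component, at 100 ng/ml for 24 h. All groups were also transfected, so the level of an untransfected or a resting cell was not analysed here. Each group has 1 library, and no value below has a replicate or a test. The labels describe no sorting of the cells, and lnc-Dpf3 itself was not analysed here.

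Dendritic cells take up antigen in tissues and show it to T cells. When they meet a microbial product such as LPS, which is sensed by Tlr4 with its co-receptors Cd14 and Ly96, they mature: they load peptides on MHC molecules, raise the costimulatory molecules that T cells need, secrete cytokines and gain the chemokine receptor Ccr7, which steers them along CCL19 and CCL21 to the lymph node. GM-CSF with IL4 is the classical culture for growing such cells from mouse bone marrow, and such cultures are known to hold macrophage-like and granulocytic cells as well. A bulk library averages over all of them, so a low level can come from few cells with much RNA of a gene or from many cells with little, and these cannot be told apart.

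A short core promoter signal was found in genes of several roles among those at 100 FPKM or more, and examples of its sequence are given first. The TATA box is a binding site of the general transcription machinery just before a transcription start. Here it was read only as the exact letters TATAAA, and "the box" below means these letters, so variants of it were not counted. The following stretches are the last 60 bases before a RefSeq transcript start (assembly GRCm38.p6), 5′ to 3′ on the gene's own strand, with a TATAAA that begins between 40 and 20 bases before the start in capitals. They come from cytokines of the LPS response, an enzyme of activated myeloid cells, an actin-bundling protein of mature dendritic cells and the most abundant gene with the box, and were chosen after the levels were seen. A gene can have several starts: the stretches of Il1a, Il1b and Ccl17 lie wholly or partly inside the annotated span of their gene.

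Il1b, chr2:129371140-129371199, minus strand, the cytokine interleukin-1 beta: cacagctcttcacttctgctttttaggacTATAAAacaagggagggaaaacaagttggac
Il1a, chr2:129309973-129310032, minus strand, interleukin-1 alpha: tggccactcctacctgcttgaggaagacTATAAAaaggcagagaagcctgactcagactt
Tnf, chr17:35202008-35202067, minus strand, tumour necrosis factor: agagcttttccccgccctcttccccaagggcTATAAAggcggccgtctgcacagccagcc
Cxcl3, chr5:90786041-90786100, plus strand, a neutrophil-attracting chemokine: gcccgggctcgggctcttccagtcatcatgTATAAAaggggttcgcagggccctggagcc
Acod1, chr14:103046952-103047011, plus strand, the enzyme that makes itaconate: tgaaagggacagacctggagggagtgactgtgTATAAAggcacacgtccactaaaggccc
Fscn1, chr5:142960295-142960354, plus strand, the actin-bundling protein fascin: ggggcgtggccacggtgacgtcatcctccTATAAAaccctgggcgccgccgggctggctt
S100a8, chr3:90669011-90669070, plus strand, a calcium-binding protein of myeloid cells: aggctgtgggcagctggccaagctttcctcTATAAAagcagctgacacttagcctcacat

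The same stretch is shown for 3 genes of the top 30 that lack these letters in the window, the chemokines Ccl22 and Ccl17 and the class I MHC light chain B2m. All 3 hold another run of T and A near the same place.

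Ccl22, chr8:94745624-94745683, plus strand: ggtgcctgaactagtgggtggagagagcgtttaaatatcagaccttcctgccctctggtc
Ccl17, chr8:94810393-94810452, plus strand: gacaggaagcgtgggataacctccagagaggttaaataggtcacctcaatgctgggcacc
B2m, chr2:122147627-122147686, plus strand: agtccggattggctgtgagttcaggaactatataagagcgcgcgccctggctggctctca

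Levels are FPKM, fragments per kilobase of transcript per 1e6 fragments, so genes of different length can be set side by side. A gene was counted as detected at 1 FPKM or more. At that level 11075 of 18021 genes, 61.5%, were detected. At 10 FPKM or more there were 6423 genes (35.6%), and at 100 FPKM or more 816 (4.53%). The median over all genes was 3.92 FPKM, and 2008 genes were listed at 0. These shares are the background against which each gene group below is read. An estimate of depth, taken from how far apart neighbouring low values lie, was about 19.9 in units of 1e6 reads. At the median length of detected transcripts, 2818 bases, 1 FPKM then stands for about 56 reads, with a 95% counting interval (exact Poisson) of 0.755 to 1.30 FPKM, and 100 FPKM for about 5608 reads, with an interval of 97.4 to 102.7. A count of 0 at that length allows up to 0.0535 FPKM, the value of 3 reads. These intervals cover counting error only and not the spread between cultures.

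The 5 defining genes chosen for mature dendritic cells all lay in the highest part of the library, which describes their levels and does not check the label. Ccl22, a chemokine that attracts T cells through Ccr4, measured 3745.94 FPKM at rank 6. Ccl17, its neighbour on chromosome 8 and a ligand of the same receptor, measured 1257.01 FPKM at rank 30, or rank 191 by FPKM times length, its transcript being 514 bases long. Ccr7, the receptor for lymph node homing (chromosome 11, 99144199 to 99155077, GRCm38), measured 808.42 FPKM at rank 59. H2-Ab1, the beta chain of the class II MHC molecule I-A, measured 269.07 FPKM at rank 275, and Cd83, a surface protein that marks mature dendritic cells and stabilises MHC class II, measured 200.10 FPKM at rank 395. The wider list of 18 genes of mature or migratory dendritic cells includes these 5 and does not check the label either. All 18 reached 10 FPKM (against 35.6% of all genes) and 15 (83.3%) reached 100 (against 4.53%). The lowest was Birc2 at 46.35, and the median was 196 FPKM. Fscn1, with its TATA box shown above, measured 665.29 FPKM in that list, Tmem123 462.71, Relb, an NF-kappaB subunit needed for dendritic cell development, 122.64, and Il4i1, a secreted amino acid oxidase, 139.12.

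**Figure D1:**
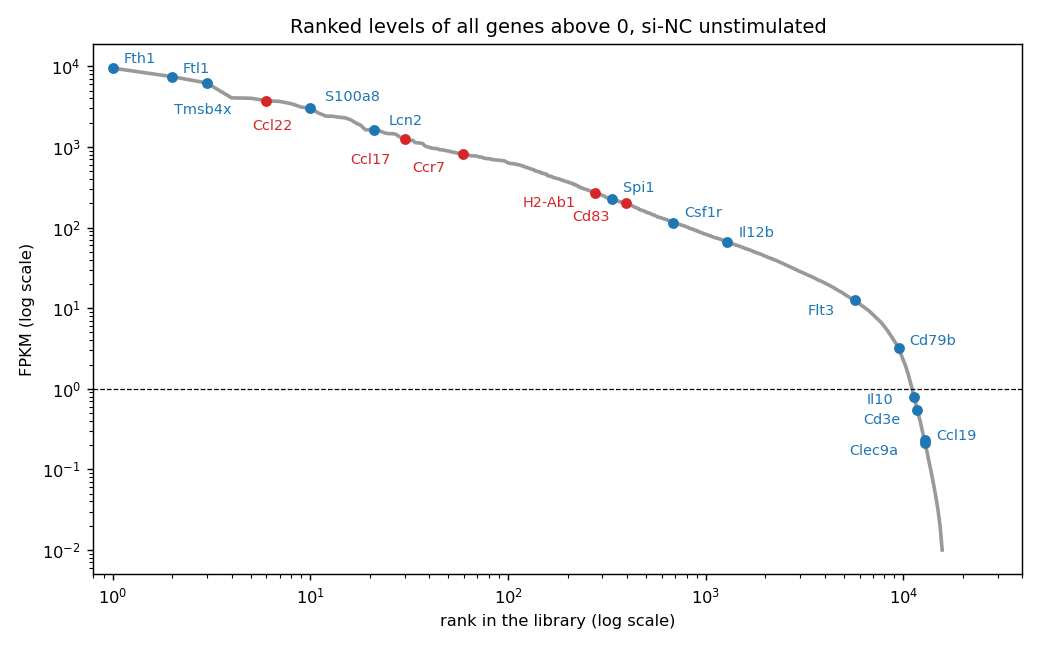
FPKM (log scale) of every gene above 0 against its rank (log scale) in the si-NC unstimulated library; red points are the 5 defining genes of mature dendritic cells, blue points are other genes described in the text, and the dashed line is 1 FPKM. The 5 defining genes sit between ranks 6 and 395, the B cell gene Cd79b lies at 3.17 FPKM, and the T cell gene Cd3e and Clec9a of type 1 dendritic cells lie under 1 FPKM.

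RNA was concentrated in few genes. The top 10 genes held 9.80% of the summed FPKM, the top 50 held 21.2%, the top 100 held 28.8% and the top 1000 held 63.9%. Weighted by transcript length, which gives a share of fragments rather than of molecules, the top 50 held 13.8%. The 424 highest genes together made up 50% of the sum. The 39 genes at 1000 FPKM or more held 19.1% of the sum and the 777 genes from 100 to under 1000 held 41.4%. By contrast, the 4652 genes from 1 to under 10 FPKM, though more numerous, held 4.48%. The abundant genes had shorter transcripts, with a median of 1169 bases at 1000 FPKM or more against 3115 bases from 1 to under 10 FPKM.

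The highest gene was Fth1, the heavy chain of the iron store ferritin, at 9510.61 FPKM, followed by Ftl1, the ferritin light chain, at 7443.47. The pair alone held 3.44% of the summed FPKM. Tmsb4x, which binds actin monomers, came next at 6210.85 FPKM, and B2m at 4059.97. Rank 5 belonged to Ccl5, a chemokine for T cells and monocytes, at 4019.02 FPKM, and rank 6 to Ccl22, so secreted chemokines stood among ferritin, actin and MHC genes. S100a9 and S100a8, which pair to form calprotectin, measured 3670.08 and 3020.39 FPKM, with Actb, cytoplasmic beta-actin, at 3440.83 and Cst3, the protease inhibitor cystatin C, at 3123.30 between them.

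The next 20 genes fell into the same few groups. Myeloid secreted or surface products were Chil3, a chitinase-like protein, at 2635.03 FPKM, the monocyte surface protein Ly6c2 at 2400.71, the acute phase protein Saa3 at 1982.32 and the siderophore-binding protein Lcn2 at 1620.42. Ly6c1, a close copy of Ly6c2, measured 40.10 FPKM, and the division of reads between these copies is uncertain. Lysosomal genes were Psap, the precursor of the saposins that help degrade sphingolipids, at 2412.89 FPKM and the protease cathepsin D, Ctsd, at 1542.12. The antigen presentation genes were Cd74, the invariant chain that accompanies class II MHC, at 1855.92 FPKM, and the class I heavy chains H2-K1 and H2-D1 at 1630.19 and 1630.18. Class I heavy chains are so alike that the authors' estimate could divide shared reads between them, and these near-equal values are uncertain. Cytoskeletal genes were Actg1 (2298.25 FPKM), the actin-binding profilin Pfn1 (1461.59) and the intermediate filament gene Vim (1461.29). The others serve every cell: the elongation factor Eef1a1 (2334.21 FPKM), the glycolytic enzyme Gapdh (2170.70), ubiquitin gene Ubb (1617.73), cyclophilin A gene Ppia (1482.90), the chaperone Hspa8 (1356.98) and the ribosomal protein genes Rpl41 (1441.81) and Rplp1 (1293.68). Ccl17 closed the top 30. Among these 30, S100a8, Rpl41 and Rplp1 have transcripts under 500 bases, where FPKM depends most on how the fragment length was allowed for.

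The surface genes were read in 8 lists by role. Of 269 genes with a row, 210 (78.1%) were detected against 61.5% of all genes, 64 (23.8%) reached 100 FPKM against 4.53%, and the median was 16.67 FPKM against 3.92. Antigen presentation stood highest: 36 of 37 genes were detected, 25 reached 100 FPKM, the median was 181.71 FPKM and the list alone held 3.27% of the summed FPKM. Its 5 highest were B2m, Cd74, H2-K1, H2-D1 and Ctss, the cathepsin that trims the invariant chain, at 791.68 FPKM. The class II chains H2-Aa (378.20), H2-Ab1 (269.07) and H2-Eb1 (228.72) lay within a narrow range. The peptide exchange factors that load them were lower, H2-DMa at 28.27 FPKM and H2-DMb1 at 50.40. The list reached down to H2-Q10, a class I gene known from liver, at 0.55 FPKM.

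Of 38 costimulatory and checkpoint genes 33 were detected and 11 reached 100 FPKM, with a median of 24.06. Lilrb4a, an inhibitory receptor of myeloid cells, was highest at 602.58 FPKM, ahead of Tnfrsf9 (4-1BB) at 234.17, Cd274, which encodes the T cell inhibitory ligand PD-L1, at 228.74, Cd83 at 200.10 and Sirpa, the receptor of the "do not eat me" signal Cd47, at 196.39. The paired CD28 ligands Cd86 and Cd80 were close to each other at 132.61 and 128.60 FPKM, and Cd40, through which T helper cells license dendritic cells, measured 73.04. The second PD-1 ligand, Pdcd1lg2, measured 20.39 FPKM, well below Cd274. Vtcn1, an inhibitory B7 family member, was listed at 0.

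Chemokine and migration receptors were detected for 25 of 38 genes, 65.8%, close to the background of 61.5%, and the median of 4.86 FPKM was near that of all genes. Ccr7 was highest, and the distance to the next receptor of a CC chemokine was wide: Ccr1 measured 62.68 and Ccr2 16.57 FPKM. The other members of the highest 5 were the formyl peptide receptors Fpr2 (227.72) and Fpr1 (150.68), which sense bacterial peptides, Ccrl2 (112.47), an atypical receptor that presents chemerin, and Cxcr4 (87.78), the receptor of Cxcl12. Ccr8 and S1pr5 were listed at 0. Xcr1, the receptor of type 1 conventional dendritic cells, measured 0.45 FPKM, and Ccr6, associated with immature dendritic cells, 0.84.

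Pattern recognition receptors were present over a wide range. Toll-like receptors and their partners were detected for 15 of 17 genes, with a median of 10.91 FPKM. The LPS co-receptor Cd14 was highest at 405.40 FPKM, while Tlr4 itself measured 19.36 and Ly96, the LPS-binding partner MD-2, 18.22. Tlr2, which senses bacterial lipoproteins, measured 160.99 FPKM, Unc93b1, the chaperone of endosomal receptors, 135.05, and Cd180, a relative of Tlr4, 27.44. The flagellin receptor Tlr5 measured 0.11 FPKM. C-type lectins were detected for 18 of 27 genes, 66.7%, led by Clec4n (Dectin-2) at 606.58 FPKM, Clec4e (Mincle) at 420.99, Clec4d at 168.16, the beta-glucan receptor Clec7a (Dectin-1) at 111.24 and Mgl2 at 53.88. Clec4g and Clec14a were listed at 0, and Cd209a, Cd207 (langerin) and Mrc1, the mannose receptor, measured 0.03, 0.03 and 0.82 FPKM. Among Fc receptors, 8 of 11 (72.7% against 61.5% of all genes) were detected. The shared signalling chain Fcer1g at 876.39 FPKM stood above Fcgr3 (187.18), the inhibitory Fcgr2b (145.17), the high-affinity Fcgr1 (40.77) and Fcer1a (15.76).

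Cytokine receptors were detected for 43 of 53 genes, with a median of 13.28 FPKM. The receptors for the cytokines of the culture were among them. The GM-CSF receptor beta chain Csf2rb measured 626.18 FPKM and the alpha chain Csf2ra 138.79. Csf2rb2, a near-identical neighbour of Csf2rb, measured 268.64 FPKM, and reads could be divided between these neighbours. The common gamma chain Il2rg measured 203.58 FPKM and Il4ra, with which it forms an IL4 receptor, 83.54. Tnfrsf1b, a receptor of tumour necrosis factor, was second in the list at 309.24. Il13ra2 and Il20ra were listed at 0. Integrins and adhesion molecules were detected for 32 of 48 genes, 66.7%, led by the tetraspanins Cd63 (404.69) and Cd9 (258.81), Selplg, the P-selectin ligand (248.81), Icam1 (205.12) and the leukocyte beta chain Itgb2 (204.10). Its partner chains differed, with Itgam (CD11b) at 136.74, Itgal at 41.62 and Itgax (CD11c), the usual surface marker of mouse dendritic cells, at 33.31 FPKM. Itga11 was listed at 0.

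**Figure D2:**
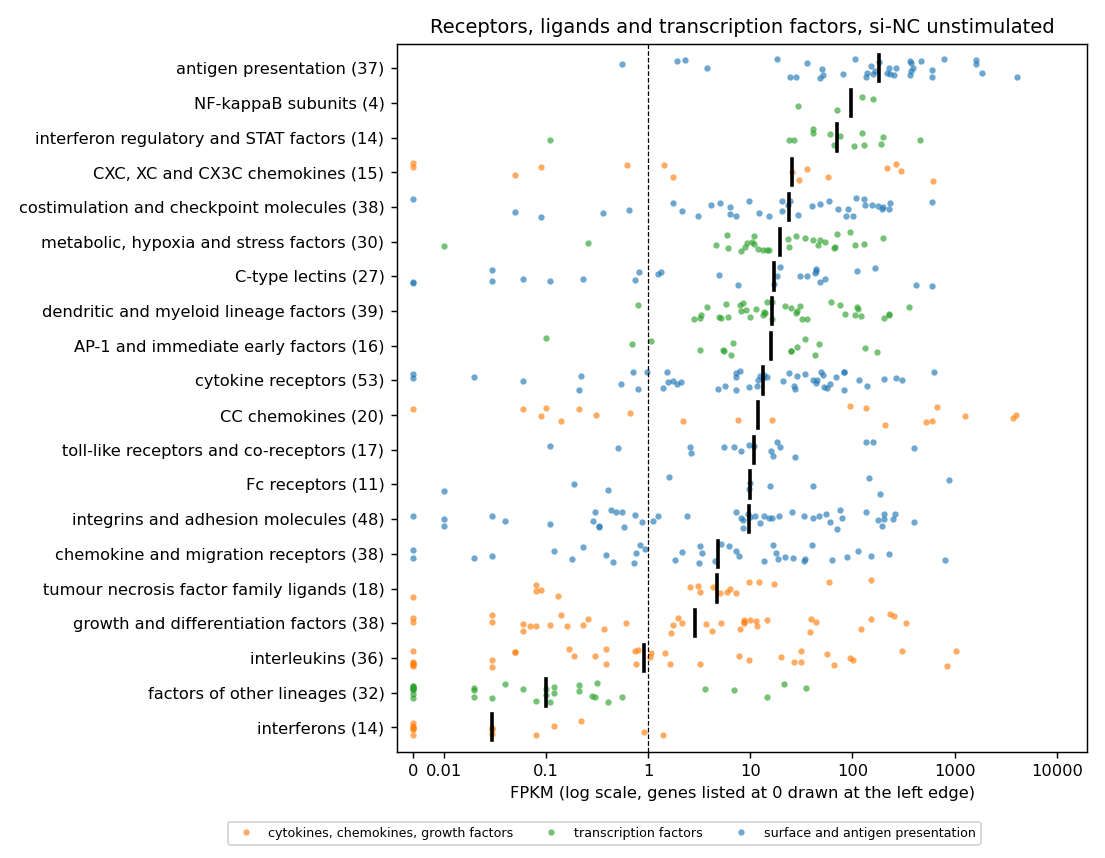
FPKM (log scale) of each gene in the 20 lists of surface and antigen presentation genes, cytokines and transcription factors, with the number of genes that have a row in brackets; black bars are list medians, the dashed line is 1 FPKM and genes listed at 0 sit at the left edge. Antigen presentation has the highest median, 181.71 FPKM, and interferons the lowest, 0.03 FPKM.

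Cytokines, chemokines and growth factors were more unequal than receptors. Of 141 genes with a row, 77 (54.6%) were detected, below the background of 61.5%, and the median was 1.67 FPKM against 3.92 for all genes. Yet 22 of them (15.6%) reached 100 FPKM against 4.53%, and the class held 3.47% of the summed FPKM. CC chemokines carried most of this, with 2.29% of the sum in 20 genes. Of these genes 12 (60%) were detected, near the background, and 8 (40%) reached 100 FPKM. The 5 highest were Ccl5, Ccl22, Ccl17, Ccl6 (676.74) and Ccl3 (601.75), and the monocyte attractant Ccl2 followed at 529.63. The other 8 measured under 1 FPKM, including Ccl19 at 0.21 and Ccl21a, listed at 0, which are the ligands added in the stimulated groups of the series.

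Chemokine genes lie in groups on the chromosomes, and neighbours differed widely. Ccl22, Cx3cl1 and Ccl17 lie within 66.4 kb on chromosome 8 (94745684 to 94812038, GRCm38), yet Cx3cl1, a membrane-bound chemokine that lies between the other two, measured 29.82 FPKM. On chromosome 11 a group of 6 genes over 144 kb held Ccl2 at 529.63 and Ccl7 at 94.32 FPKM beside Ccl11, Ccl8 and Ccl1 at 0.14, 0.10 and 0.31. In the second group there, over 139 kb, all 5 genes reached 100 FPKM, from Ccl9 at 136.65 to Ccl5 at 4019.02. The annotated span of Ccl4 (207.08 FPKM) overlaps that of Ccl3 in RefSeq, and the strand setting of the library is not given in the sources used here, so the division between these genes is uncertain. On chromosome 5, Cxcl3 (621.77 FPKM), Cxcl2 (216.26) and Cxcl1 (36.01), which attract neutrophils through Cxcr2, shared 147 kb with Cxcl15, listed at 0, and Cxcl5 at 1.42. The interferon-inducible Cxcl10 measured 298.86 FPKM while its neighbour Cxcl9, within 27.6 kb, measured 0.62.

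In the CXC, XC and CX3C list 10 of 15 genes (66.7%, near the 61.5% of all genes) were detected with a median of 25.78 FPKM. Its 5 highest were Cxcl3, Cxcl10, the membrane-bound Cxcl16 (269.66), Cxcl2 and platelet factor Pf4 (57.32), and Cxcl13 and Cxcl15 were listed at 0. Cxcl13 guides B cells into follicles and Cxcl15 is known from lung.

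Interleukins were detected for 18 of 36 genes (50% against 61.5% of all genes), with Il1b, Il1a and Il1rn of the IL-1 family highest. Il1b measured 1029.73 FPKM at rank 38 and Il1a, within 71.6 kb of it on chromosome 2, 837.38 at rank 56. Il1rn, which encodes the antagonist of their receptor, measured 307.34 FPKM. Other members of the family were lower, with Il1f9 at 56.31, Il1f6 at 9.72, Il18 at 3.20, Il33 at 1.63 and Il1f5 at 0.03. Ebi3, a subunit shared by IL-27 and IL-35, measured 100.74 and Il6 95.24. The subunits of IL-12 were both detected, Il12b (p40) at 66.09 and Il12a (p35) at 26.66 FPKM, whereas Il23a (p19), which pairs with p40 to form IL-23, measured 1.05 FPKM, about 28 reads with a counting interval of 0.698 to 1.52. Il10, the anti-inflammatory cytokine, measured 0.79 FPKM, about 21 reads with an interval of 0.489 to 1.21. Il17b, Il17d, Il21, Il24, Il34 and Il5 were listed at 0.

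Interferon genes were low: 1 of 14 was detected, Ifng at 1.39 FPKM (interval 0.957 to 1.95), and Ifnb1 measured 0.91 (interval 0.498 to 1.53, about 14 reads). Next were Ifnz (0.22), Ifna13 (0.12) and Ifna4 (0.08), while Ifna11, Ifna14, Ifna2, Ifna9, Ifnab and Ifnk were listed at 0. Interferon alpha genes are near-copies of each other, so these low values are uncertain. Interferon-stimulated genes with a row, by contrast, were all present, while Mx1 and Mx2 of this list had no row. All 30 reached 10 FPKM (against 35.6% of all genes) and 19 (63.3%) reached 100 (against 4.53%). The median was 132 FPKM, from Iigp1 at 29.16 to Bst2 at 623.52. Isg15, a ubiquitin-like modifier, measured 568.05 FPKM, Oasl2 293.63, Rsad2, the antiviral protein viperin, 281.32 and Oas1a 262.22.

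Among 18 ligands of the tumour necrosis factor family 13 (72.2%) were detected, with a median of 4.70 FPKM. Tnf was highest at 151.93 FPKM, then Tnfsf4, the OX40 ligand given to T cells, at 59.36, Tnfsf12 at 17.16, Lta at 12.07 and Tnfsf15 at 9.63. Eda was listed at 0. Growth and differentiation factors were detected for 23 of 38 genes, 60.5%, again near the background. Grn, the lysosomal growth factor progranulin, measured 332.61 FPKM, Mif 255.92, Spp1 (osteopontin) 233.58, Tgfb1 150.88 and Inhba, a subunit of activin A, 122.80. Fgf2 and Tgfa were listed at 0.

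Some ligands and their receptors differed widely in level within the same library. The pairs were chosen after their values were seen, so they do not show how common this is. Ccr7 measured 808.42 FPKM with its own ligands at or near 0. For Ccl22 and Ccl17 the order was the other way round, since their receptor Ccr4 measured 1.82 FPKM (interval 1.48 to 2.21). Cxcl10 at 298.86 FPKM stood beside its receptor Cxcr3, found on activated T cells, at 0.18, and Il1b at 1029.73 beside its signalling receptor Il1r1 at 1.55 (interval 1.32 to 1.81), below the decoy receptor Il1r2 at 44.19. The cytokines supplied in the medium were low as transcripts, Csf2 (GM-CSF) at 1.75 FPKM and Il4 at 0.76, beside receptors at 626.18 for Csf2rb and 83.54 for Il4ra. Il10 (0.79) and Ifnb1 (0.91) were likewise low beside Il10ra (48.95) and Ifnar2 (82.15). Tnf and its receptor Tnfrsf1b were both high, at 151.93 and 309.24 FPKM. Some other pairs also lay closer on the log scale. Ccl3 and Ccr1 measured 601.75 and 62.68 FPKM, Il6 and Il6ra 95.24 and 5.67, and Il12b and Il12rb1 66.09 and 7.27.

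**Figure D3:**
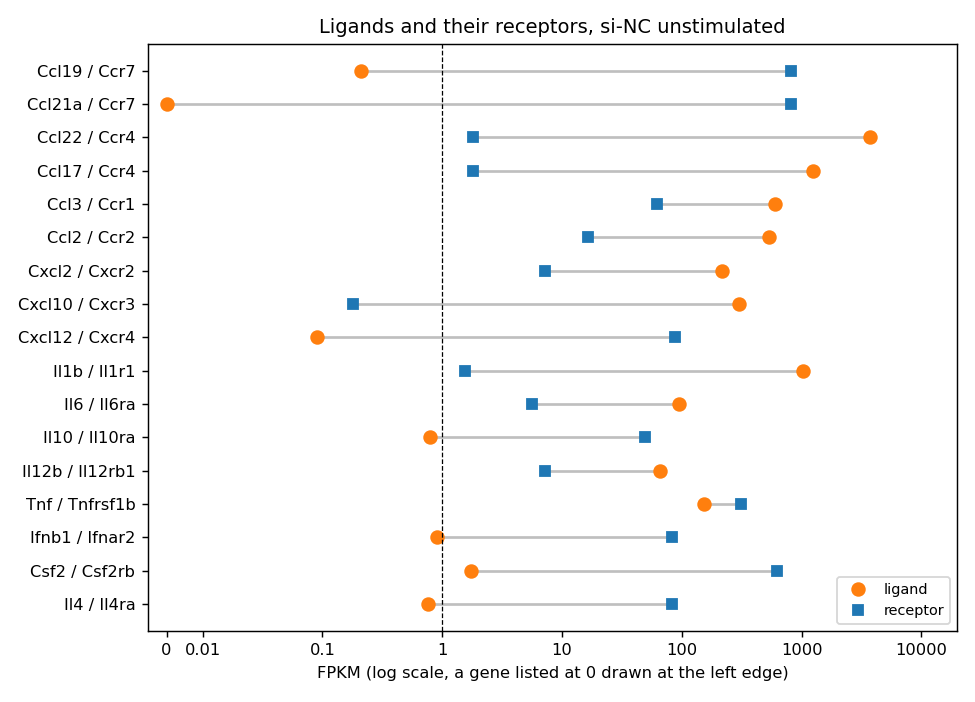
FPKM (log scale) of 17 ligand and receptor pairs in the si-NC unstimulated library, with ligands as orange circles, receptors as blue squares and the dashed line at 1 FPKM. Ccl19 and Ccl21a lie far below Ccr7, Ccl22 and Ccl17 far above Ccr4, and Tnf and Tnfrsf1b close together.

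Transcription factors were read in 6 lists, and none reached 1000 FPKM. Of 135 genes with a row 102 (75.6%) were detected, 21 (15.6%) reached 100 FPKM and the median was 13.63. Factors of dendritic and myeloid cells were detected for 38 of 39 genes. Id2, a partner protein that blocks E proteins and is needed by type 1 dendritic cells, was highest at 355.18 FPKM, with Irf8 (227.22) and the myeloid master factor Spi1, which encodes PU.1 (226.32), next to each other in rank. Bhlhe40, a repressor induced in activated immune cells, measured 202.32 FPKM and Relb 122.64. Batf3, needed for type 1 dendritic cells, measured 84.22, Irf4, needed for type 2 dendritic cells, 30.58 and Zbtb46, a factor that sets conventional dendritic cells apart from other myeloid cells, 13.90. Maf, a factor of macrophages, measured 9.05 FPKM. Below 1 FPKM in this list was Bcl11a, a factor of plasmacytoid dendritic cells and B cells, at 0.79.

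All 4 listed NF-kappaB subunits were above 10 FPKM, Nfkb2 at 159.32, Nfkb1 at 125.45, Rela at 70.28 and Rel at 29.15. Interferon regulatory factors and STATs were detected for 13 of 14 genes with a median of 70.81 FPKM. Irf7, which amplifies type I interferon responses, was the highest transcription factor in any list at 462.25 FPKM, and Irf5 (192.01), Irf1 (129.16) and Stat2 (125.13) were also among the highest here. Stat6, which acts downstream of the IL4 receptor, measured 66.31 FPKM.

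Of 16 AP-1 and immediate early factors 14 were detected, led by Junb (175.25) and Atf3 (131.54), with Jund (46.65), Nr4a3 (42.89) and Ier2 (34.41) next. Fos measured 5.43 and Egr1 5.58 FPKM. Metabolic, hypoxia and stress factors were detected for 28 of 30 genes: Atf4 (201.18), Klf6 (130.09), Xbp1 (105.11), Nfe2l2, the antioxidant factor NRF2 (94.12), and Hif1a (70.95) were the highest, whereas the related Epas1 measured 0.26. Factors of other lineages formed the opposite pole, with 5 of 32 detected (15.6% against 61.5% of all genes) and a median of 0.10 FPKM. The 5 detected were Nfe2 (35.41), Gata2 (21.21), Tcf7 (14.50), Tal1 (6.99) and Gata1 (3.64). Nfe2, Gata1, Gata2 and Tal1 are known from megakaryocytes, erythroid cells, mast cells and basophils. Cdx2, Foxa1, Pax6, Sox10 and Sox17 were among the 8 listed at 0.

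Genes of cell function accounted for much of the sum. The ribosomal protein list, which takes any gene named Rpl or Rps and so includes close copies, held 9.39% of the summed FPKM, with 84 of 87 genes detected and a median of 566 FPKM. Its 5 highest were Rpl41, Rplp1, Rps27 (1103.96), Rps2 (988.72) and Rps9 (961.54), and Rpl10l and Rps27rt were listed at 0. Rps6 measured 13.26 FPKM, while its transcribed pseudogene Rps6-ps4 measured 746.29, so the division of reads between them is uncertain. All 33 actin and migration genes reached 10 FPKM and 29 reached 100, with 5.02% of the sum; after Tmsb4x, Actb, Actg1, Pfn1 and Vim the actin-severing Cfl1 measured 1206.93. The 22 iron and oxidative stress genes held 4.36% of the sum. After ferritin the highest were the peroxiredoxins Prdx5 (851.82) and Prdx1 (686.51) and the metallothionein Mt1 (442.05), while the iron exporter Slc40a1 measured 8.83 FPKM.

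All 24 glycolytic genes were detected. Aldoa (777.10), Pkm (772.24), Eno1 (677.68) and Ldha (461.89) followed Gapdh, and the isoform genes Eno2 (2.58), Aldoc (4.74) and Ldhb (1.42) were far lower. Lysosomal proteases and cystatins were detected for 15 of 16 genes, with Cst3, Ctsd, Ctsb (1206.77), Ctsz (1125.41) and Ctss the highest. Among 17 immune metabolic enzymes 16 were detected. Acod1 was highest at 775.37 FPKM, then Alox5ap, which helps make leukotrienes, at 164.43, Il4i1 at 139.12, the nitric oxide synthase Nos2 at 59.54 and the prostaglandin synthase Ptgs2 at 46.80. Arg1, the arginase that competes with Nos2 for arginine, measured 0.46 FPKM (interval 0.252 to 0.772). All 18 mitosis and replication genes were detected with a median of 22.17 FPKM, led by Pcna (127.72), Rrm2 (44.25), Mcm3 (38.50), Top2a (38.23) and the proliferation marker Mki67 (37.30).

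Markers of other cells were read in the same way. Neutrophil genes were the highest of them, with 18 of 19 detected, a median of 31.50 FPKM and 2.44% of the summed FPKM. S100a9, S100a8, Chil3 and Lcn2, all in the top 30, are also made by monocytes and macrophages. The granule gene Ngp measured 686.67 FPKM, Ltf (lactoferrin) 74.08 and Camp 73.66, and the early granule genes Ctsg 57.94, Prtn3 41.75, Elane 19.87 and Mpo 16.71. Genes of more mature neutrophils ranged from Mmp8 (31.50), Cd177 (28.87) and Csf3r (23.78) over Cxcr2 (7.26), Mmp9 (5.57) and Ly6g (3.98) down to Retnlg (0.08). Mast cell and basophil genes were detected for 8 of 9 (88.9% against 61.5% of all genes). The basophil proteases Prss34 and Mcpt8 measured 271.37 and 209.51 FPKM, with Cpa3 at 93.33, Hdc at 87.30 and Fcer1a at 15.76 below them. The lowest members were Cma1 (3.22), Tpsb2 (1.32) and Mcpt4 (0.54). Of 8 eosinophil genes 7 (87.5% against 61.5% of all genes) were detected. Prg2 measured 213.29, Epx 41.10, Ear6 26.92, Prg3 10.85 and Ear2 10.76 FPKM. Lower were Ear1 (7.66), Siglecf (3.07) and Il5ra (0.72).

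Macrophage and monocyte genes were detected for 16 of 20, with a median of 11.88 FPKM and a wide split. Lyz2 (lysozyme) measured 1127.55, Gpnmb 501.92, Adgre1 (F4/80) 202.23, Lyz1 147.72 and Cd68 139.19, and the receptor Csf1r 115.23. Among the lower members, C1qa, C1qb and C1qc lay between 1.01 and 4.11 FPKM, and Timd4, Cd163 and Vsig4 measured 0.14, 0.10 and 0.03. Ms4a7 (24.28), Trem2 (13.30), Marco (10.46) and Mertk (8.61) were among those in between. The part that any of these cells has in the levels of shared genes was not tested.

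Markers of dendritic cell subsets were read from short lists, whose shares are set beside the 61.5% of all genes with no test. Of 8 genes of type 2 conventional dendritic cells 6 (75%) were detected, with Sirpa at 196.39, Mgl2 at 53.88, Tnip3 at 24.42, Ltb at 7.27 and Clec10a at 4.91 FPKM, but Cd209a at 0.03. Type 1 genes were detected for 3 of 8 (37.5%). Ppt1 (31.96), Naaa (26.77) and Wdfy4 (14.29) were above 10 FPKM, whereas the defining genes Xcr1 (0.45) and Clec9a (0.23, about 4 reads) were not detected, and Itgae and Snx22 both measured 0.74. In the plasmacytoid list 4 of 8 (50%) were detected. Ly6c2 and Bst2 are shared with monocytes and with the interferon response, Ly6d and Cox6a2 measured 3.49 and 1.72 FPKM, Pacsin1 0.63 and Siglech, a defining gene, 0.46.

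Lymphoid genes lay mostly under or just above 1 FPKM. T cell genes were detected for 7 of 14, and among the highest were Lat (8.24 FPKM), Cd247 (4.31), Cd8b1 (1.96) and Lck (1.80), while the CD3 chains Cd3e, Cd3g and Cd3d measured 0.55, 0.49 and 0.40. B cell genes were detected for 4 of 13, led by Blnk (12.38), Cd79b (3.17), Fcmr (1.78) and Cd79a (1.74), with Vpreb1 listed at 0. Natural killer cell genes were detected for 4 of 9, with Gzmb at 13.92, Nkg7 at 3.08, Klrd1 at 2.94, Gzma at 2.33 and Klrc1 at 0.34 FPKM. Klrb1c and Ncr1 were listed at 0, and the killing protein gene Prf1 measured 0.07.

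Of the remaining blood lineages, megakaryocyte and platelet genes were detected for 7 of 8 with a median of 2.80 FPKM, from Pf4 (57.32), Ppbp (25.78) and Itga2b (15.17) down to Gp9 (3.21) and Gp1ba (2.39). Erythroid genes were detected for 2 of 8, Hbb-bt at 11.39 and Hba-a1 at 2.76 FPKM. The next were Hbb-bs (0.55), Hba-a2 (0.46) and Alas2 (0.13), and globin genes are near-copies whose division is uncertain. Stem and progenitor genes were detected for 6 of 8 (75% against 61.5% of all genes). Ly6a measured 348.98, Procr 228.69, Kit 13.28, Flt3 12.47, Sox4 11.99 and Cd34 5.24 FPKM, while Hlf and Mecom measured 0.30 and 0.02. Stromal and endothelial genes were detected for 5 of 11, from Pecam1 (16.47), also found on leukocytes, Kdr (7.90) and Vwf (4.71) to Acta2 (3.90) and Pdgfrb (1.27), with the collagens Col1a1 and Col1a2 at 0.39 and 0.32.

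**Figure D4:**
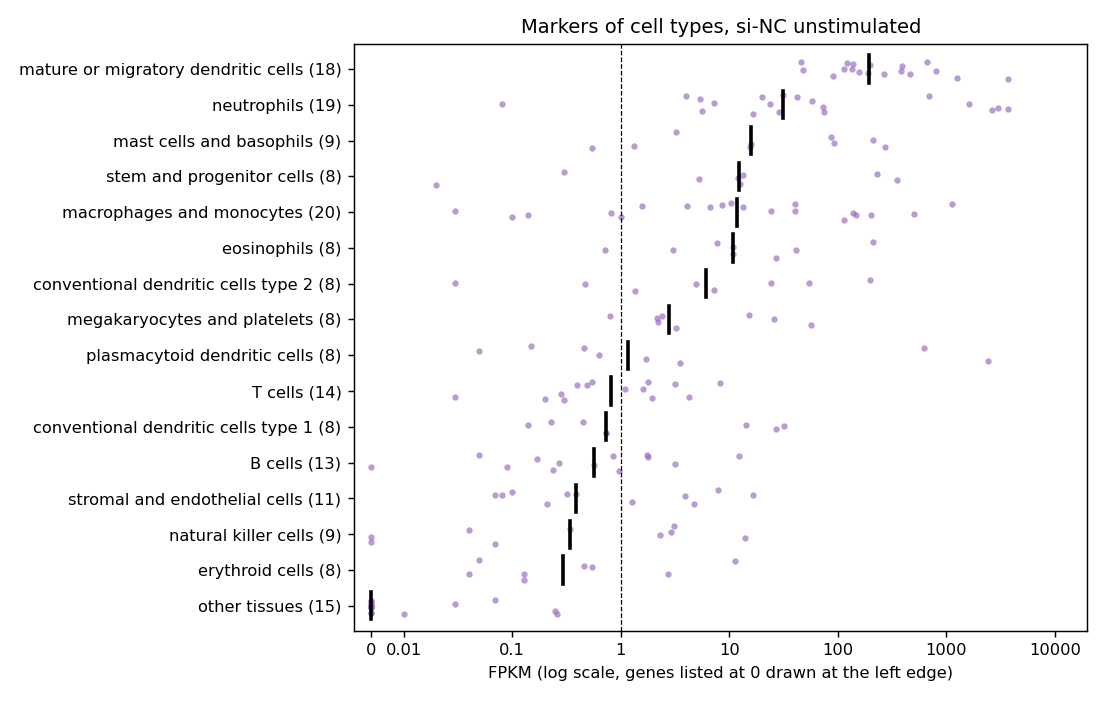
FPKM (log scale) of the markers of 16 cell types or tissues, ordered by median, with the number of genes that have a row in brackets; black bars are medians, the dashed line is 1 FPKM and genes listed at 0 sit at the left edge. Mature dendritic cell markers all lie above 10 FPKM and those of other tissues all lie under 1 FPKM. Neutrophil markers spread from 0.08 to 3670.08 FPKM, and markers of macrophages and monocytes from 0.03 to 1127.55.

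Among genes under the detection level were those of other organs. None of 15 markers of other tissues was detected, and 10 were listed at 0: Alb and Apoa1 of liver, Gcg and Amy2a5 of pancreas, Gfap and Snap25 of nervous tissue, Krt5 and Krt14 of skin, Lalba of mammary gland and Myh6 of heart. Among the others were the heart and muscle gene Myh7 at 0.26, the synaptic gene Syp at 0.25, Actc1 at 0.07 and Ttn at 0.01 FPKM. Large gene families known mainly from other tissues were read by their counts. Of 103 olfactory receptor genes with a row 63 were listed at 0 and 4 (3.88%) were detected, and of 53 vomeronasal receptor genes 34 were at 0 and 4 detected. None of 26 keratins, 28 cytochrome P450 family 2 genes, 15 GABA receptor subunits or 7 beta-defensins was detected. Among 24 homeobox cluster factors 1 was, Hoxb4 at 4.65 FPKM, and among 17 Wnt ligands Wnt11 (5.83) and Wnt6 (1.77). More members were detected among collagen chains, 7 of 39 (17.9%), and potassium channel subunits, 11 of 84 (13.1%, the highest Kcnab2 at 37.60 FPKM), and 2 of 20 fibroblast growth factors were. High for their families were the olfactory receptor Olfr1033 at 59.50 FPKM, rank 1461, and the vomeronasal receptor Vmn1r58 at 11.54, which were named after their values were seen.

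Returning to the core promoters, a TATAAA in the window was found in 336 of 14106 genes with a promoter sequence, 2.38%. A gene with several starts was counted when any of them had the box. These values are for the gene's own strand, the direction in which the box is read; with TTTATA, its reverse complement, also allowed, 405 genes (2.87%) had a match. No other motif was searched. The share was not even over the range of levels. At 1000 FPKM or more it was 5 of 33 genes (15.2%) and from 100 to under 1000 it was 25 of 608 (4.11%). It was lowest from 10 to under 100 FPKM, 50 of 4602 genes (1.09%), stood at 52 of 3717 (1.40%) from 1 to under 10, and was higher again among genes above 0 and under 1, 108 of 3649 (2.96%), and among genes listed at 0, 96 of 1497 (6.41%). The classes at both ends of the scale thus held the box more often than those in the middle, as a description of this library with no test.

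Within the top 100, 9 of 78 genes with a sequence held the box: S100a8, H2-D1, Ppia, Vim, Il1b, Il1a, Acod1, Prdx1 and Fscn1. The 27 ribosomal protein genes among them held none, so the 9 came from the other 51. By role, cytokine genes stood above the 2.38% of all genes whatever their level, with 4 of 18 at 100 FPKM or more, 6 of 39 from 1 to under 100 and 8 of 53 under 1. The 4 highest with the box were Il1b, Il1a, Cxcl3 and Tnf, whose sequences are printed above. Detected surface genes held it in 4 of 160, Clec4e, Cxcr4, H2-D1 and H2-Q4, near the share of all genes. Detected transcription factors held it in 5 of 81, the immune factors Irf7, Irf8, Irf4 and Cebpa, and Fos. A match is a description of letters and not a measured binding site.

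**Figure D5:**
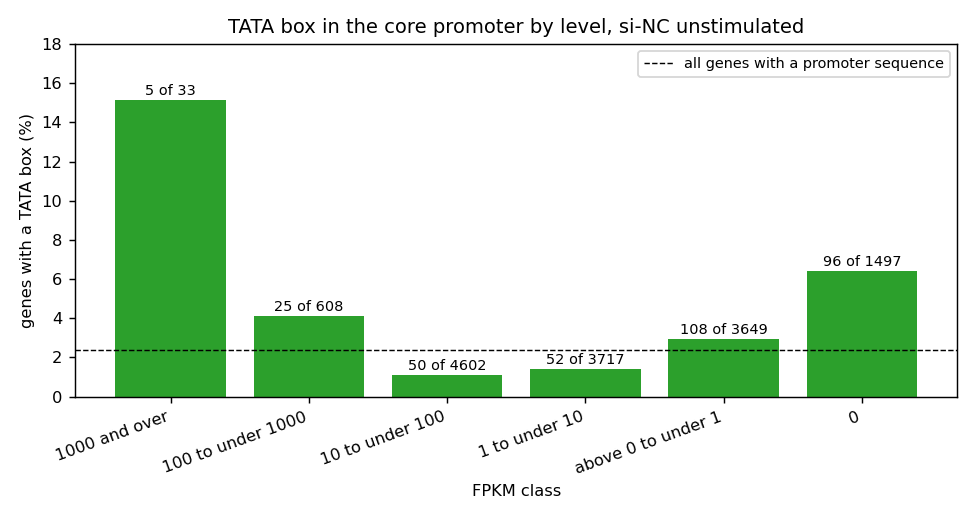
Percentage of genes whose RefSeq promoter holds the exact letters TATAAA in the window before the start, for 6 classes of FPKM in the si-NC unstimulated library. Variants of the TATA box were not counted. Numbers over the bars are genes with TATAAA of genes with a sequence, and the dashed line is the share in all genes, 2.38%. The share falls from 15.2% in the highest class to 1.09% from 10 to under 100 FPKM and is 6.41% in genes listed at 0.

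The set of abundant genes was largely shared with the other libraries of the series, which come from the same kind of culture. Of the top 50 genes here, 45 to 47 were in the top 50 of each other library and 44 in all 3. Of the 11075 detected genes 10766 were detected in all 4 libraries, and 53 were detected here alone. The highest of those 53 was Zbed5 at 6.62 FPKM, with 0.30 in si-Lnc-Dpf3 unstimulated cells and 0.27 and 0.15 with CCR7L after si-NC and si-Lnc-Dpf3. The next was Tmod1 at 1.65 FPKM, so the other 52 lay close to the detection level. Of the 2008 genes listed at 0, 675 were at 0 in every library and 3 reached 1 FPKM in another.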

How the data were processed

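RNA of dendritic cells was sequenced on the BGISEQ-500 platform after TRIzol extraction, per the labels' protocols. The deposited table gives FPKM per gene, as its header says, to 2 decimals. Bowtie2, RSEM and the build GRCm38 appear in the submitters' processing notes; no version is given in the sources used here. RSEM divides reads that match several genes by an estimate, which can shift levels between close copies. The column was matched to its group by the abbreviations in its name, and 0 sample columns were left unused.

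Python 3.11.15 with pandas 2.3.3, numpy 2.4.6, scipy 1.17.1 and matplotlib 3.10.9 was used. In 26 rows a symbol turned into a date was restored through the Entrez number. RefSeq (GRCm38.p6) matched 17892 genes, GENCODE transcripts gave median lengths for 17164, and RefSeq promoters (250 bases before to 50 after the start) covered 14106. The depth estimate rests on 231 low values, of which 53.7% were whole reads to within 0.1 where a uniform spread would give 20%, so whole reads could not be had and levels were kept as FPKM.

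The members and the 44 gene lists were chosen with earlier results of these data known. Of 1012 list entries 976 had a row. Named genes were the top 30, the 5 defining markers and, in each list, the 5 highest and those listed at 0; others named were chosen after their values were seen, and some genes of the rule are not reported here. With 1 library per group no comparison was tested. Alternatives were other detection levels, TPM, length-weighted shares and the removal of predicted-only rows, short transcripts or low genes.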

Additional observations from a re-analysis of the deposited data

How the results depend on the processing

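The counts of detected genes stayed within 1.5 times under every alternative run. With 0.5 and 2 FPKM as the detection level 11889 and 10187 genes were detected in place of 11075, and without the 751 rows of predicted transcripts alone 10928. A level of 1 TPM is nearly the same as 0.5 FPKM in this library, gave the same counts and is no separate check. Surface genes ranged from 197 to 227, cytokines from 67 to 84 and transcription factors from 101 to 105. The share held by the top 50 genes, 21.2% of summed FPKM, became 13.8% when FPKM was multiplied by transcript length, since the abundant genes have short transcripts. It was 21.4% without transcripts under 500 bases and 21.3% with genes under 1 FPKM left out of the total. By FPKM times length 21 of the top 30 genes kept a place among the top 30, and Ccl17 moved from rank 30 to 191, Rpl41 from 27 to 202 and Rplp1 from 29 to 192. No paired analysis was possible because each group has 1 library and no test was run. Depth limits genes near 1 FPKM, where the counting interval spans 0.755 to 1.30 FPKM at the median length, and wider for shorter transcripts.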
